A study of Drosophila melanogaster with 3 samples.

Results

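Casein kinase 1 enzymes are serine and threonine kinases, and 3 of their *Drosophila* genes are described here by the binding of the zinc finger protein zf30C around them: *gish*, *CkIalpha* and *dco*. The genes were chosen by name with earlier peak values of the same lists in view, and every summit inside a gene or within 2 kb of it was taken. They are 3 of 13945 protein-coding genes, and they hold 39 of the 30000 summits of the pooled list. Of these 39, 6 are among the 3567 of the authors' final list, thresholded by the reproducibility of ranks between replicates (irreproducible discovery rate, IDR). The list ends at pooled rank 3567, and the next pooled summit, at rank 3568, is outside it. Membership of a single summit thus follows its pooled signal, and not its own ranks in the replicates. Summits in the IDR list are termed peaks. Because peak signals entered the choice, counts, signals, classes and ranks of the 3 genes are given as descriptions, with no test.

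The data came from chromatin immunoprecipitation with sequencing in whole embryos of 1 fly line, aged 0 to 24 h, with both sexes pooled. The line is a stable transgenic one that carries zf30C with GFP fused to its C terminus, and all 3 libraries, biological replicates 1 to 3, share this genotype, age and tissue. The labels name zf30C as the antibody target, yet their free text also calls these libraries an input control; they were treated as immunoprecipitates, and no control library was analysed here. Whole embryos mix all cell types, so strong binding in few cells and weak binding in many cannot be told apart.

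Kinases of this family act on several signalling routes in the fly embryo. CkIalpha phosphorylates Armadillo, the fly beta-catenin, and Cubitus interruptus, the transcription factor of Hedgehog signalling, which marks both for proteolysis. The *dco* gene encodes Doubletime, which phosphorylates the clock protein Period and also acts in Hedgehog and Fat signalling. Gilgamesh, the product of *gish*, is the membrane-associated gamma form, known for phosphorylating the Wingless co-receptor Arrow and for roles in glial migration, olfactory learning and planar polarity.

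The sequences under the peaks are shown first, because the peaks differed from each other in base composition and in the letters they held. Among all peaks, the 6-mer with the largest excess within 50 bp of the summit over the flanks 150 to 250 bp away was ACACTG, followed by AGTGTA and CACTGA, whose letters overlap in 1 longer run. These letters, on either strand, are in capitals below. Windows of 201 bp, centred on the summit and read from the plus strand of dm6, are printed for the upstream *dco* peak (chr3R:31062618-31062818) and the intronic *dco* peak (chr3R:31059145-31059345), neither of which holds annotated UTR bases. For the 2 *CkIalpha* peaks, whose windows overlap UTRs, only 30 bases around the copy of ACACTG nearest the summit are printed (chrX:12653728-12653757 in the promoter and chrX:12659371-12659400 beside the *Tis11* start).
dco upstream peak: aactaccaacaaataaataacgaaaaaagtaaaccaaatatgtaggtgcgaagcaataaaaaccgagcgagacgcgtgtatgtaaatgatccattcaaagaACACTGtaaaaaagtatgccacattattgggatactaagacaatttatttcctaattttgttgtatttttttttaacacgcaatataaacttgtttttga
dco intron peak: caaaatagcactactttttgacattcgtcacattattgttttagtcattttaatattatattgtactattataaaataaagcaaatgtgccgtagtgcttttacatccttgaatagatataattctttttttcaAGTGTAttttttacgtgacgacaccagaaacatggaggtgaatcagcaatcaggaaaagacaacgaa
CkIalpha promoter peak: ccgatagtttagCAGTGTgccacggtgaag
Tis11 start peak: tcgcggctggtcACACTGccgggcaaccga

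Letters and composition are described for 5 of the 6 peaks, all but the *gish* promoter peak. These statements do not extend to that peak. Over all lists, 51.0% of IDR windows and 27.9% of the other pooled windows held at least 1 of the 3 leading 6-mers, as did 72% of the 50 peaks with the highest signal. These 6-mers were picked at the summits of the same peaks, the 50 highest included, so a higher share there is partly built in. ACACTG alone was in 29.5% of IDR windows and 14.2% of other pooled windows. Within 50 bp of the summit it was in 19.8% of peaks, and in 5.38% of the flanks.

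The *CkIalpha* promoter window carried 3 copies of ACACTG, all on the minus strand, that began 50 bp before and 15 and 86 bp after the summit, and 1 copy of CACTGA that began 40 bp before it. In the upstream *dco* window the single copy began 1 bp after the summit. In the window at the *Tis11* start the copy began 61 bp before the summit and overlapped GGTCACACT, letters of the M1BP motif, which 1.40% of IDR windows and 1.10% of other pooled windows held. The same window held AGTGTA, 10 bp before the summit. The *dco* intron window held AGTGTA, 34 bp after the summit, and the window of the weaker *gish* peak held CACTGA, 65 bp after it.

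Letters of 8 known motifs were looked for as well. GAGAG, read by GAGA factor, was in none of the 5 windows, against 34.5% of IDR and 26.6% of other pooled windows. TATAAA was in both *dco* windows, against 29.7% of IDR windows. CTTTGAA, which Pangolin, the transcription factor of Wingless signalling, recognises, was in the upstream *dco* window, against 4.93% of IDR windows. The letters searched for Zelda (CAGGTAG), DREF (TATCGATA) and the Clock and Cycle E-box (CACGTG) were in none of the 5. GCCAT, searched for Pho, was in the window of the weaker *gish* peak, against 24.2% of IDR windows. A match or its absence describes these letters in this window and says nothing of the factor.

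Base composition differed between the 5 windows. Both *dco* windows were 29.9% G and C, a level at or below which lay 11.7% of IDR windows. The *CkIalpha* promoter window stood at 46.8%, the *Tis11* start window at 52.2% and the weaker *gish* window at 53.7%. The median was 37.8% over IDR windows, 35.3% over the 50 highest and 42.8% over the other pooled windows. Both *dco* peaks lay below each of these medians. The *CkIalpha* promoter, *Tis11* start and weaker *gish* peaks lay above each.

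The *gish* gene (FBgn0250823, chr3R:16272452-16304768, plus strand, dm6) is 32.3 kb long and has 16 annotated transcripts with 4 starts. Its first start serves 2 transcripts and its second, 549 bp downstream, serves 8. Both groups share a start codon, and their proteins have 358 to 537 residues. The third start lies 8437 bp from the first, within the long intron of the upstream forms, and serves 5 transcripts (*gish-RA*, *RC*, *RN*, *RO* and *RP*). These use a start codon 8839 bp further downstream and encode proteins of 339 to 448 residues. The fourth start, 16842 bp from the first, serves *gish-RG* alone, with a protein of 476 residues.

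Signal at *gish* was concentrated at the third start. The summit lay at 16280729, 160 bp upstream of that start, with a pooled signal of 5457, the seventh highest of the pooled list (rank 7). Replicate 1 ranked it 7, replicate 2 ranked it 10 and replicate 3 ranked it 13. The 3 replicates thus placed it close to the top, and their own summits lay 2 bp and 9 bp before and 1 bp after the pooled one, in that order. Its region was 1016 bp wide, against a median of 440 bp, and 38 of the 3426 distinct regions (1.11%) were as wide.

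Signal units differ between lists, so each replicate's value was divided by the median of its own list. The *gish* promoter peak then stood at 78.7, 55.0 and 46.2 in replicates 1 to 3, a mean of 60.0 ± 16.8 (SD, n = 3). Replicate 1 was the highest and replicate 3 the lowest. The spread was smaller than the distance to any other peak of the 3 genes, none of which exceeded 15.6 in any replicate.

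The second *gish* peak, at 16282312, fell in an annotated 5′ UTR exon, 1423 bp downstream of the third start. Its pooled signal of 213 gave rank 3122, near the end of the IDR list, and was 25.7-fold below the first. Relative to the list medians it stood at 2.50, 2.68 and 1.91 in replicates 1 to 3, or 2.36 ± 0.40 (SD, n = 3). Only replicate 2 placed it among its own 3567 highest regions, at rank 2763, while replicates 1 and 3 gave ranks 4024 and 4895.

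The other *gish* starts had little signal. A pooled summit 30 bp upstream of the first start reached 56.6, rank 21113, and was in the lists of replicates 1 and 2 but not of replicate 3. It also lies 7 bp upstream of the start of *Mat89Ba*, which is transcribed the other way from 37 bp away, so the 2 promoters share it. The summit 238 bp downstream of the second start reached 46.7, rank 27862, and was missing from replicate 2. No pooled summit lay within 500 bp of the fourth start. Signal at the third start therefore exceeded that at any other start of the gene by a wide margin in the pooled list, and this holds for the summits as listed, since the reads between them were not analysed here.

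The remaining pooled summits of *gish* formed a low series along the gene and its flanks. Of the 26 in all, 23 were inside the gene. By class, 19 lay in introns, 4 in promoters, 2 in 5′ UTR exons and 1 in a coding exon. That coding exon belongs to *Mat89Ba*, and its summit lay 1199 bp outside *gish*. The promoter summits include those nearest the starts of *Mat89Ba* and *Zip89B*, which also lay outside *gish*. The 24 outside the IDR list ran from 44.4 to 130, with a median of 59.4, against 66.0 over all pooled summits outside the IDR list. Of the 26, 13 overlapped a region in every replicate list. Among them, the summits at 16275448 and 16275649 overlapped the same replicate regions, as did those at 16286165 and 16286379. The replicates do not resolve either pair. The map of summits along *gish* shows the single tall value against this series.

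**Figure D1:**
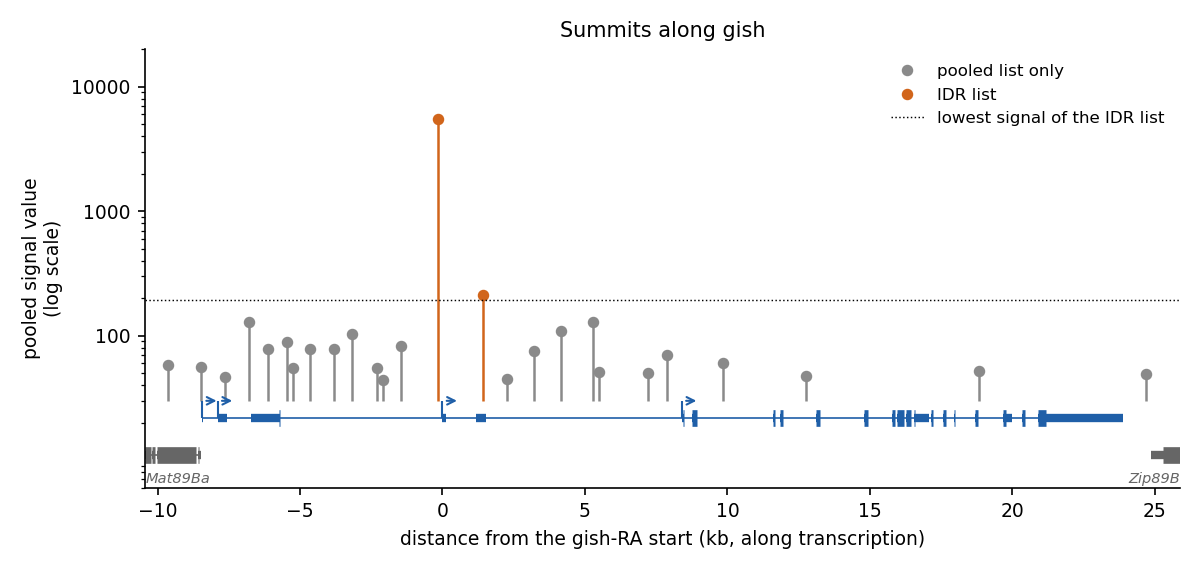
Pooled signal value (log scale) of every summit in gish or within 2 kb, by distance in kb from the third start (gish-RA), along transcription. Orange points are in the IDR list, grey points only in the pooled list, and the dotted line is the lowest signal of the IDR list, 193.0. Blue blocks are gish exons (thick where coding), arrows its 4 starts, grey blocks the protein-coding neighbours. One summit, at 5457 just upstream of the third start, stands above all others, which are at or below 213.

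A strongest peak at a later start was not unusual among genes of this layout. Of 1752 protein-coding genes with starts more than 1000 bp apart, 442 had a peak within 500 bp of a start. In 223 of these, the strongest such peak lay more than 1000 bp from the first start, a share of 50.5% (exact Clopper-Pearson 95% interval 45.7 to 55.2%, counting error only). What was rare at *gish* was the height, since 9 of the 13945 protein-coding genes (0.0645%), *gish* included, had a summit as strong inside or within 2 kb. Peak signals entered the choice of genes, so this share is a description only.

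The *CkIalpha* gene (FBgn0015024, chrX:12653626-12657834, plus strand) is 4.21 kb long and has 6 transcripts with 5 starts in its first 1074 bp. They share 1 start codon and encode 1 protein length, 337 residues. Its promoter peak, at 12653725, lay 99 bp downstream of the first start and 75 bp upstream of the second. The pooled signal was 275, rank 2234, and the ranks in replicates 1 to 3 were 3282, 2015 and 1600. Each replicate had it among its top 3567, and relative to the list medians it stood at 2.89, 3.37 and 3.86, or 3.37 ± 0.48 (SD, n = 3).

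A further pair of *CkIalpha* summits covered the downstream starts. One lay 23 bp downstream of the fourth start with a signal of 187, rank 3759, just below the end of the IDR list. The other lay 60 bp upstream of the fifth start with a signal of 135, rank 5994. They overlapped the same replicate regions, ranked 6509, 3132 and 2191, so the replicates do not resolve them from each other. Replicates 2 and 3 put that region among their top 3567, and replicate 1 did not.

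The strongest summit assigned to *CkIalpha* was at the start of another gene. It lay at 12659444, 1610 bp past the end of *CkIalpha*, 29 bp downstream of a start of *Tis11*, which encodes an RNA-binding protein that promotes mRNA decay, and 18 bp upstream of the start of *lncRNA:CR33963*. Its pooled signal was 994, rank 472, and the replicates ranked it 670, 526 and 218. Relative to the list medians it stood at 10.5, 9.73 and 15.6, or 11.9 ± 3.2 (SD, n = 3). All 3 replicates gave it a higher value than the promoter peak of *CkIalpha*, and a distance limit of 1000 bp would leave it out.

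The *dco* gene (FBgn0002413, chr3R:31054085-31061210, minus strand) is 7.13 kb long and has 5 transcripts. Of these, 4 use the upstream start and *dco-RE* uses a start 437 bp downstream, and all encode 440 residues from the same start codon. Neither peak of *dco* was at a start. The stronger one, at 31062718, was intergenic and 1508 bp upstream of the first start, with a signal of 529, rank 1027. Its replicate ranks were 1489, 798 and 876, and relative to the list medians it stood at 5.53, 7.03 and 5.84, or 6.13 ± 0.79 (SD, n = 3). This was the peak of the 3 genes with the smallest spread between replicates relative to its mean.

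The second *dco* peak, at 31059245, lay in an intron, 1528 bp downstream of the *dco-RE* start. The pooled signal was 366, rank 1581. Replicates 1 and 3 ranked it 1447 and 1203, and replicate 2 ranked it 3513, just inside its top 3567. Relative to the list medians it stood at 5.67, 2.28 and 4.72, or 4.22 ± 1.75 (SD, n = 3), so replicate 2 gave less than either of the others. The replicate 2 summit lay 142 bp away from the pooled one, against a median of 15 bp over all peaks in that replicate.

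At the *dco* starts themselves the signal stayed below the IDR list. A pooled summit at 31060938, between the 2 starts, 272 bp downstream of the first and 165 bp upstream of the second, reached 157, rank 4788. The replicates ranked it 6454, 7262 and 3963, none of them among the top 3567. Another intronic summit, 950 bp downstream of the *dco-RE* start, reached 171, rank 4284, and the 3 weakest of the 8 summits were at 49.2 to 64.7. The side-by-side maps of *CkIalpha* and *dco* show these positions.

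**Figure D2:**
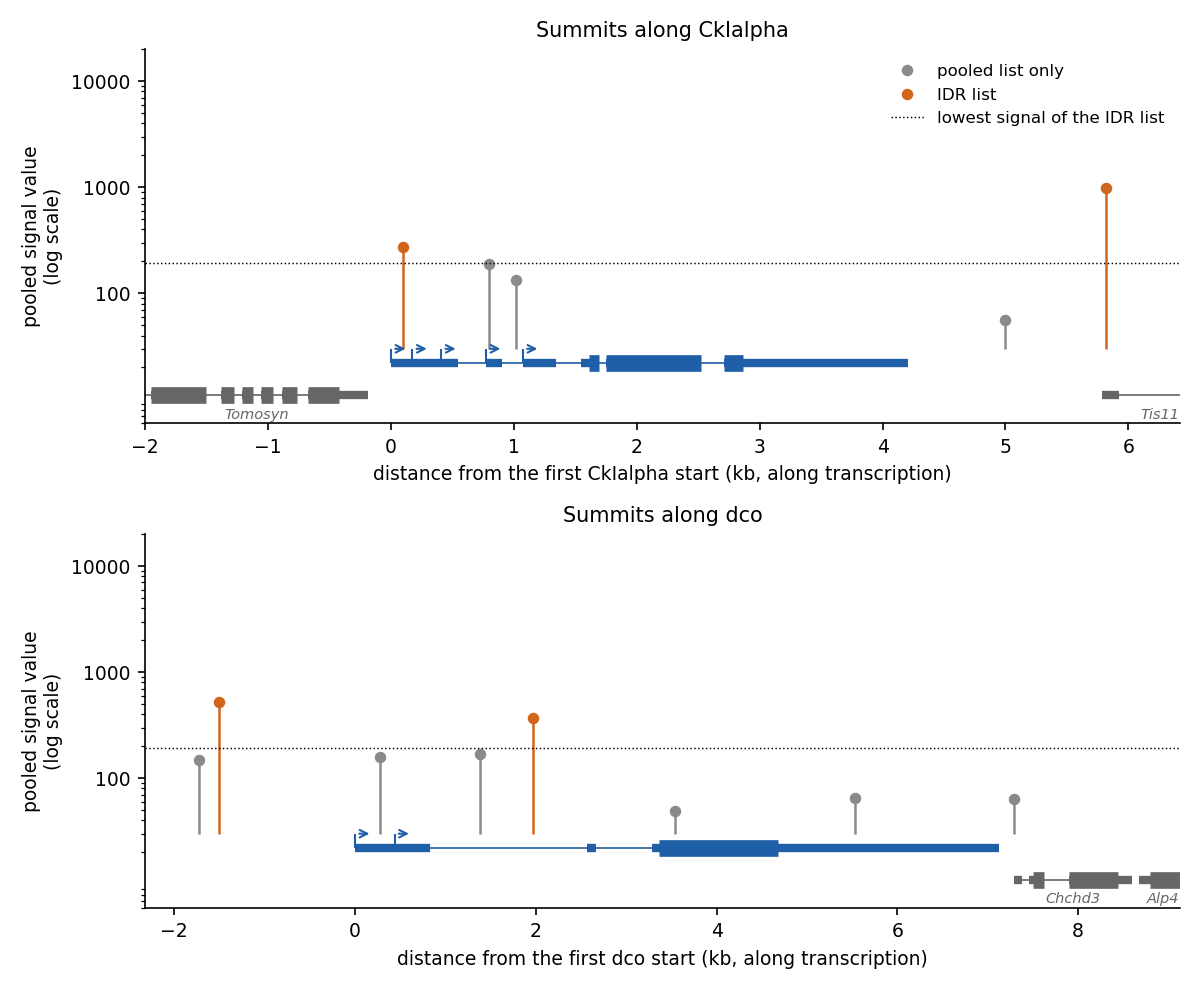
Pooled signal value (log scale) of every summit in CkIalpha (top) and dco (bottom) or within 2 kb, by distance in kb from the first start of each gene, along transcription. Colours, dotted line and gene models are as in the map of gish, and non-coding neighbours are not drawn. In CkIalpha the higher of the 2 orange points lies at the Tis11 start, and in dco both orange points, at 529 and 366, lie away from the starts, where the grey point reaches 157.

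Ordered by signal relative to the replicate medians, the 6 peaks ran from the *gish* promoter (60.0), through the *Tis11* start (11.9), upstream *dco* (6.13), the *dco* intron (4.22) and the *CkIalpha* promoter (3.37), to the *gish* 5′ UTR (2.36). The first and the second kept their places in every replicate. The *dco* intron overlapped its neighbours on both sides: it was above upstream *dco* in replicate 1 and the lowest of the 6 in replicate 2. The ranges of the *CkIalpha* promoter and the *gish* 5′ UTR did not overlap each other. All 3 replicates had 5 of the 6 peaks among their top 3567, against 65.3% over the IDR list, but the pooled list was made from the same reads and this is no independent test.

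**Figure D3:**
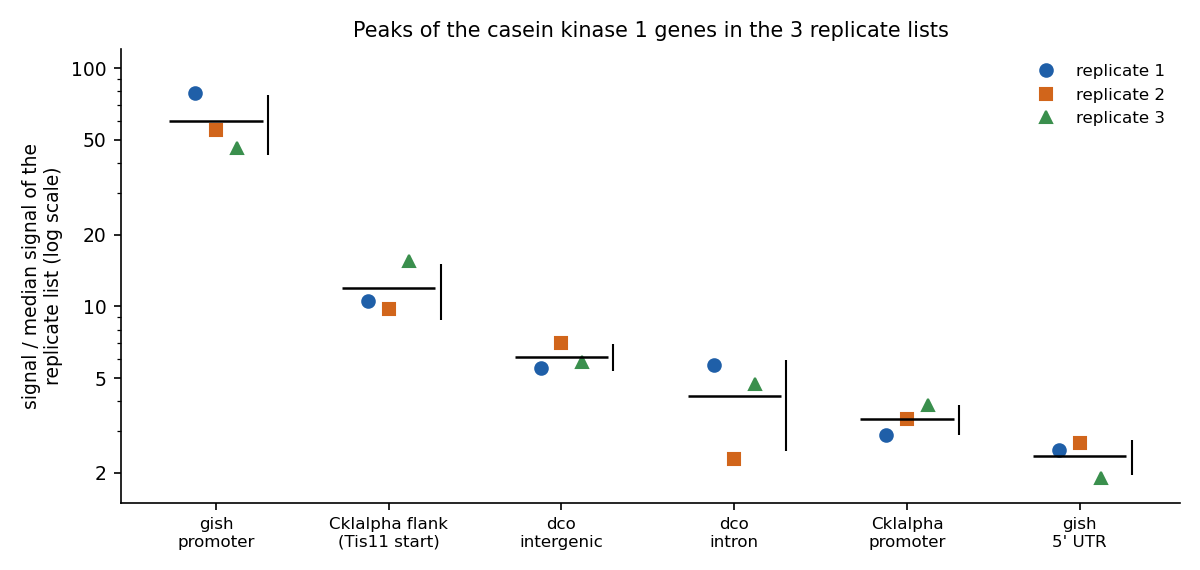
Signal of each peak in the 3 replicate lists, divided by the median signal of that list (log scale), for the 6 IDR-list peaks in order of pooled rank. Points are replicates, the horizontal bar is the mean and the vertical line ± 1 SD (n = 3). The gish promoter peak lies at 46.2 to 78.7 and all others at or below 15.6, and the dco intron peak has the widest spread in proportion to its mean.

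A peak within reach was not rare, and it was more frequent for long genes. Over all protein-coding genes, 21.3% had a peak inside or within 2 kb, and 9.65% had one within 500 bp of a start. The share was 52.8% among genes at least as long as *gish*, 37% among those at least as long as *CkIalpha* and 43.7% among those at least as long as *dco*. That all 3 genes had a peak, and 2 of them (*gish* and *CkIalpha*) one at a start of their own, is read against these shares, and the choice of genes used the same signals. Each of the 3 held 2 peaks, and 979 genes (7.02%) held at least as many.

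By the height of the strongest summit, 589 genes (4.22%) matched or exceeded *CkIalpha*, through its summit at *Tis11*, and 1078 (7.73%) matched or exceeded *dco*. Pooled summits per 10 kb of gene and flanks were 7.16 for *gish*, 6.09 for *CkIalpha* and 7.19 for *dco*. The median was 1.85 over all protein-coding genes, and 1.58, 2.19 and 2.15 over those at least as long as each in turn. All 3 densities were above these medians, and 33 of the 39 summits behind them were outside the IDR list. The curve of signal against pooled rank places the 39 summits among all 30000.

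**Figure D4:**
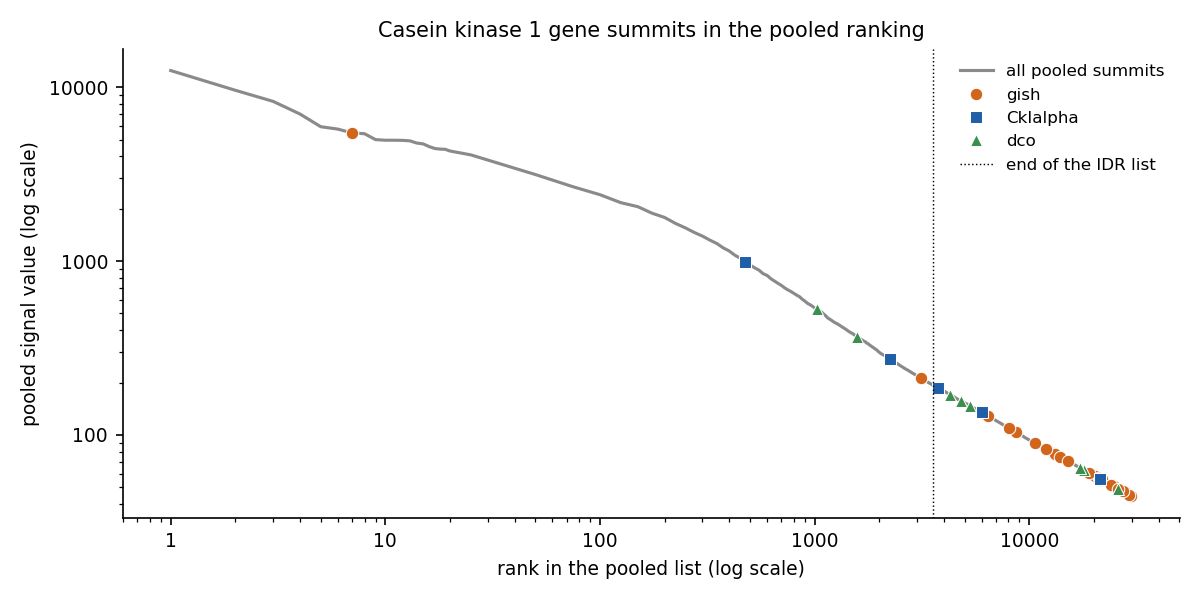
Pooled signal value against rank in the pooled list, both on log scales, for all pooled summits (grey line) and the summits of gish, CkIalpha and dco (points). The dotted line is the end of the IDR list, rank 3567. The gish promoter peak is at rank 7 and the next of the 3 genes, at the Tis11 start, at rank 472.

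At the edges of the rule, the last summits taken lay 1199 bp (*gish*, signal 58.1), 1610 bp (*CkIalpha*, 994) and 1722 bp (*dco*, 147) outside the gene. The first left out lay 2241 bp (58.0), 2412 bp (205, a peak 288 bp upstream of a *Tis11* start) and 3111 bp (52.6) away. The last summit of the IDR list and the next pooled summit both had a signal of 193.0.

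Genes whose strongest summit was most like that of each member were found by the mean absolute difference of log2 rank over the 3 replicate lists, leaving out genes that hold the same summit. For *gish* the nearest was *Act5C*, a cytoplasmic actin gene, at 0.29, with ranks 10, 11 and 15. Next came *CG11050* (0.46), *numb* (0.52), which encodes an inhibitor of Notch, the pair *Gk2* and *CG13921* (0.53), and *Fkbp14*, *TAF1C-like* and *CG46395*, which share 1 summit (0.53). Of these 5 summits, 4 were in promoters, 94 to 197 bp upstream of the nearest start, and that of *CG11050* was in an intron. The start nearest to the *Act5C* summit, 197 bp away, was that of *lncRNA:CR45668*. For the pair *Gk2* and *CG13921* it was that of *CG13921*.

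For *CkIalpha*, through its summit at *Tis11*, the nearest were *Trf*, *poe* and *MED20* around 1 summit (0.30), *Tlk* (0.31), *rasp*, *Asciz* and *CG32280* (0.32), *CrebB* (0.33) and *Src64B* (0.33). For *dco* they were *bam*, *RpS27* and *Nup37* (0.07), *Agps*, *Lap1* and *CG12853* (0.14), *Mnt* (0.15), *Cad99C* (0.15) and *slp2* (0.16). *bam* encodes a germline differentiation factor and *slp2* a segmentation factor. Differences shrink down the ranking because summits lie closer together there on the log scale, so the likeness values of the 3 members are not comparable with each other.

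The other genes of the casein kinase 1 family had few listed summits. *CG12147* held 1 pooled summit, with a signal of 90.8, and *CG2577*, *CG7094* and *CG9962* held none within 2 kb, so 0 of these 4 had a peak, against 21.3% of all protein-coding genes. Their median length was 1.37 kb, against 2.17 kb for all, and with 4 genes this count says little. Of 4 casein kinase 2 genes, only *CkIIbeta*, the regulatory subunit, had a peak, with a signal of 953 in a 3′ UTR. *CkIIalpha*, the catalytic subunit, reached 50.9, at a summit 205 bp upstream of the start of *RpL10*.

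Substrates and partners of the kinases were mixed. The counts below are read against 21.3% of all protein-coding genes with a peak and 9.65% with one at a start. These shares are not matched for length. Among genes at least as long as *dco* (7.13 kb), 43.7% had a peak, and the median lengths of the lists below ran from 8.23 to 19.4 kb. With so few genes per list, the counts say little. Among 11 clock genes, 2 had a peak, both of them with one at a start: *Pdp1*, a clock activator, reached 846 in an intron and *sgg*, the fly GSK-3 kinase, 615 in an intron. The next were *cry*, the light receptor, at 174 and *cwo* at 151, both below the IDR list. Only replicate 1 listed a region at the *cry* summit, and all 3 replicates listed one at that of *cwo*. *per*, whose protein Doubletime phosphorylates, had no pooled summit within 2 kb, nor had *Clk*, *cyc* or *slmb*, the last of which encodes the ubiquitin ligase component that receives phosphorylated Armadillo, Cubitus interruptus and Period.

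Of 11 genes of Wingless signal transduction, 7 had a peak, and 3 of these one within 500 bp of a start of their own. Over all protein-coding genes the shares were 21.3% and 9.65%. The list had a median length of 12.5 kb, and 43.7% of genes at least as long as *dco* had a peak. The receptor genes *fz2* (1420, with 11 peaks) and *fz* (904) and the co-receptor gene *arr* (1421), whose product Gilgamesh phosphorylates, had their strongest summits in introns. *Apc2*, of the destruction complex, reached 1603, at the start of *CG5510*. *arm* itself was at 138, below the IDR list, and *dsh* had no pooled summit.

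In Hedgehog signal transduction 4 of 9 genes had a peak (21.3% over all protein-coding genes), all 4 with one at a start (9.65% over all). The strongest summits of the receptor gene *ptc* (941), of *ci* (764) and of *sgg* (615) were in introns, however. That of *Pka-C1*, a kinase that primes Cubitus interruptus for casein kinase 1, was at its start and reached 257. The Fat branch of Hippo signalling had 4 of 8 with a peak, and its median gene length was 19.4 kb. They were *wts*, the effector kinase, at 2080, the cadherin genes *ds* at 2004 and *ft* at 1488, and *yki* at 1361, at the start of *Gpat4*. Of these only *yki* had a peak within 500 bp of one of its own starts.

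Protein phosphatase 2A, which counteracts Doubletime on Period, had a peak at 4 of 5 subunit genes, each with one at a start. Over all protein-coding genes the shares were 21.3% and 9.65%, and these 5 genes had a median length of 12.3 kb. The regulatory subunit gene *wrd* reached 1833, 452 bp upstream of its start, *mts*, the catalytic subunit, 344 at the start of *Rack1*, *wdb* 268 and *Pp2A-29B* 209. *tws*, which encodes another regulatory subunit, was at 157, below the IDR list. No gene of these lists reached the signal of the *gish* promoter peak.

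Over the 48 distinct genes of the 7 lists, 20 had a peak inside or within 2 kb and 12 one at a start. Their median length was 9.15 kb, against 2.17 kb for all protein-coding genes, and the median number of peaks was 0 in both. The shares among all protein-coding genes, 21.3% and 9.65%, are not matched for that length. Among genes at least as long as *dco* (7.13 kb), 43.7% had a peak inside or within 2 kb. The plot of strongest signals by list shows the spread within each.

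**Figure D5:**
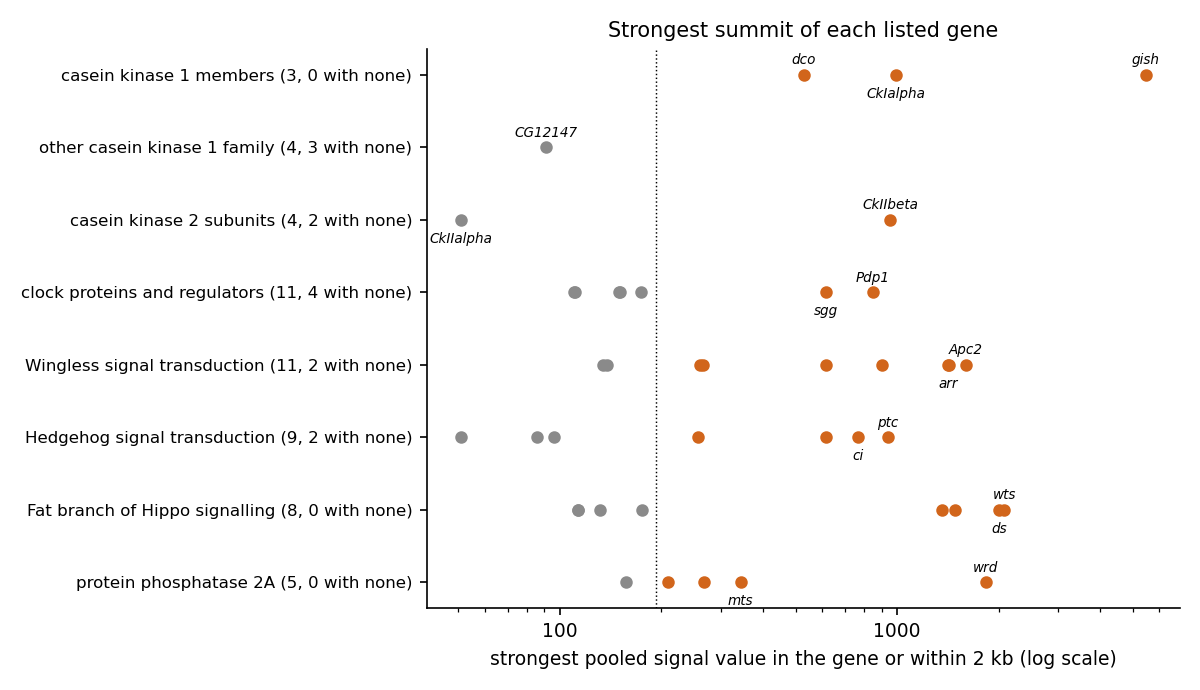
Strongest pooled signal value (log scale) inside each gene or within 2 kb, for the 3 casein kinase 1 genes and 7 lists of related genes, with the number of genes per list and the number with no pooled summit in brackets. Orange points are in the IDR list, grey points are not, and the dotted line is the lowest signal of the IDR list. The value of CkIalpha is its summit at the Tis11 start, and gish, at 5457, lies above every listed gene, of which the highest is wts at 2080.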

How the data were processed

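Chromatin immunoprecipitation with sequencing was measured in 3 biological replicates of 1 group, with chromatin sheared to 200 to 800 bp, per the labels. The authors deposited 5 lists of regions on dm6: 1 per replicate, 1 from the pooled replicates and the IDR list. The IDR threshold, peak caller and aligner, with any versions, were not given in the sources used here. The signal value is a score used as the authors deposited it, with no stated unit. The −log10 q-value was also deposited by the authors. It was 3.96 for each of the 6 peaks and ranked nothing. The lists hold no read counts, so the depth is unknown.

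Summits were placed on the genes of Ensembl release 115 (BDGP6.54), without transposable elements, and with the RefSeq sequence of Release 6, the assembly dm6 denotes. A summit up to 500 bp from a start was classed as promoter; failing that, exon classes (5′ UTR first, then coding, 3′ UTR and non-coding) took precedence over intron, and the rest were intergenic. A summit's rank in a replicate is that of the highest region there overlapping its own by at least 1 bp. Letters were looked for in 201 bp windows, reading both strands; that of the *gish* promoter peak is not reported here. Classes, overlaps and searches were tested on simulated data.

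The members, gene lists and motifs were chosen with earlier results of these data known. The text names every member, 5 genes most like each, and up to 4 of the highest genes per list; neighbours, *per*, *arm*, *dsh*, *tws* and list members without a summit were named after their values were seen. Distance limits, promoter widths, support thresholds, windows and single replicates were varied. Python 3.11.15, numpy 2.4.6, pandas 2.3.3, scipy 1.17.1 and matplotlib 3.10.9 were used.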

Additional observations from a re-analysis of the deposited data

How the results depend on the processing

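Of 44 alternatives, 32 left the value within the spread or within 1.5 times the count. The 6 peaks became 4 without flanks or with 1000 bp, and 7 with 5000 bp. With no flanks or with 1000 bp, *CkIalpha* lost its peak at *Tis11* and *dco* its upstream peak, and each kept 1. The higher-ranked 0.5 of the IDR list kept 4, without the *gish* 5′ UTR and *CkIalpha* promoter peaks. The number supported by all 3 replicates, 5, was 3 with 0.5 times as many top regions. It was also 5 when any 1 replicate was left out. The share of genes with a peak, 21.3%, was 9.15% inside the gene alone, 17.3% with 1000 bp, 31.4% with 5000 bp and 32.8% among genes with a pooled summit, as those settings change the genes or the bases counted. With 150 bp each side, 1 peak window held GAGAG, counted over all 6 peaks. The strongest peaks relative to the list median ran from 50.6 to 66.9 (*gish*), 10.1 to 13.0 (*CkIalpha*) and 5.69 to 6.43 (*dco*) without single replicates. No paired analysis was possible because there is 1 group and no comparison between groups. With no read counts, a gene with no listed summit is one where none was listed, and the signal there is unknown.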

Other observations

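Several weak summits counted with the 3 genes lay at starts of neighbours. A summit with a signal of 49.2 was 174 bp upstream of a start of *Zip89B*, past the end of *gish*, and only replicate 3 listed a region there. Another, at 63.2, was 7 bp upstream of the start of *Chchd3*, past the end of *dco*, in the lists of replicates 1 and 3. The summit 30 bp upstream of *gish*, at 56.6, was also at the start of *Mat89Ba*. All were far below the IDR list.

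The summit at 31062932, next to the upstream *dco* peak and further from the gene, had a signal of 147 and overlapped the same replicate regions as the peak, ranked 1489, 798 and 876. Its replicate ranks are therefore those of the peak, and the replicate lists do not resolve it.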
